A study of Mus musculus with 8 samples.

Results

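Collagens, laminins and other genes of the extracellular matrix were compared between the cerebella of Inbred Long Sleep (ILS) and Inbred Short Sleep (ISS) mice. The strains descend from mice bred to sleep long or short after a dose of ethanol, and the question here was how their baseline expression differs without ethanol. The ILS group was made of 2 alcohol-naive males, mice 48 and 51, and the ISS group of 2 alcohol-naive males, mice 55 and 56. All 4 had been fed and watered freely after transfer between facilities, the labels give no age, and each was measured on an Affymetrix 430A array and a 430B array. Members were all probe sets whose single gene symbol named a collagen chain, a laminin chain, a nidogen, fibronectin, a tenascin, a small leucine-rich proteoglycan, a lectican, a link protein, a SPARC protein or Cthrc1. This rule used names and no measured value. It gave 73 of the 18193 genes with a probe set of their own, through 151 of the 45137 probe sets of both chips, with 108 probe sets on 430A and 43 on 430B. Of the genes, 22 were on both chips, 41 on 430A alone and 10 on 430B alone.

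The extracellular matrix is the secreted meshwork around and between cells. In the brain, collagen fibres lie mainly in the meninges and vessel walls, while sheets of type IV collagen, laminin and nidogen form the basement membranes under endothelium and at the outer glial limit. Between neurons and glia the matrix is instead built of hyaluronan, of lecticans that bind it, of link proteins that hold lecticans to hyaluronan, and of tenascins, and around some cerebellar neurons it condenses into perineuronal nets.

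The values were signal intensities scaled to a common trimmed mean of 500, and a positive log2 difference means a higher signal in ILS. A probe set was tested where its mean reached the chip's median. By that filter 48 member probe sets of 36 genes were tested, 30 on 430A and 18 on 430B. The other 103 were not tested, and 84 of them lay below the array median on every array. No tested probe set stood for 37 of the 73 genes. Tests were by limma across the whole chip with Benjamini-Hochberg adjustment, and a call is an adjusted p under 0.05. With 2 mice a strain the smallest p an exact permutation test allows is 0.333, so such a test could not pass and the p-values rest on limma's shared estimate of spread. In whole cerebellum, fewer cells of a type and less RNA per cell cannot be told apart.

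The arrays carried the labelled tissue's markers. Gabra6, a GABA receptor subunit of cerebellar granule cells, had 5731 and 4160 in ILS and 5658 and 6733 in ISS. Pcp2 of Purkinje cells had 5996 and 5488 in ILS and 7167 and 9007 in ISS. For 430A, station 2 was used for both ILS arrays and station 1 for both ISS arrays, which were scanned later, so station, scan order and strain cannot be told apart there. On 430B both ISS arrays were scanned before both ILS arrays, so scan order and strain cannot be told apart there either. ILS mouse 48 alone ran on station 1. The 3' probe set of the array's ribosomal RNA control had 538 and 801 in ILS against 147 and 142 in ISS on 430A, and 2189 and 2585 in ILS against 545 and 712 in ISS on 430B. Its part in the results below was not tested.

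Of the member genes, Cthrc1 and Dcn passed the test, both higher in ILS. One of 30 member probe sets was called on 430A, where 2.93% of all tested probe sets were called and 1.61% were called higher in ILS. One of 18 was called on 430B, where 0.48% were called and 0.195% were called higher in ILS. With 1 call on each chip, the counts are too small to set the members apart from the rest of the arrays. At an unadjusted p under 0.05 there were 6 members on 430A (20%, beside 21.8% of all tested probe sets) and 3 on 430B (16.7%, beside 9%).

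Cthrc1 encodes a short secreted glycoprotein with a stretch of collagen repeats, known from injured arteries and as a modulator of Wnt signalling. Its single probe set on 430B, for a gene on chromosome 15, had 2589 and 2303 in ILS mice 48 and 51, against 678 and 792 in ISS mice 55 and 56. Both ILS arrays stood far above both ISS arrays, and the gap between strains was many times the gap within either strain. The log2 difference was 1.74 ± 0.17 (SE, n = 2 mice a strain), a 3.33-fold higher signal in ILS, with a limma adjusted p of 0.00247. The call held without each mouse in turn (adjusted p of 0.00102 to 0.0454) and under each scaling tried. Station could not be checked apart from that, since the block on 430B amounts to leaving out ILS mouse 48. Scan order on 430B cannot be told apart from strain. The call was lost with eBayes fitted without its intensity trend (adjusted p = 0.0653).

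Decorin (Dcn) is a small leucine-rich proteoglycan that coats collagen fibrils and binds TGF-beta. Its 430A probe set had 668 and 629 in ILS, against 405 and 421 in ISS. The strains did not overlap and mice of one strain lay close together. The log2 difference was 0.65 ± 0.14 (SE), with a limma adjusted p of 0.0498, just inside the threshold. It was not called with equal array medians (0.0654), quantile normalization (0.0569), no filter (0.0785), no intensity trend (0.0579) or both chips adjusted together (0.0711). Leaving out 1 mouse at a time gave log2 differences of 0.61 to 0.69 with adjusted p-values of 0.073 to 0.16. On 430B the Dcn probe set, not tested, had 151 and 323 in ILS and 231 and 250 in ISS, so its strains overlapped. Lum, which neighbours Dcn on chromosome 10 with no protein-coding gene between them, had 173 and 165 in ILS and 152 and 167 in ISS, all below the array medians.

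Decorin is made by fibroblasts, in the brain mainly those of the meninges. Of 9 tested marker genes of meninges and fibroblasts on 430A limma called none (2 at an unadjusted p under 0.05, beside 21.8% of all tested probe sets). Over all 15 listed genes on the chip, tested or not, the summed intensity was 13342 to 15014 in ILS and 14335 to 16317 in ISS. The median log2 difference of the 9 was -0.02, and the 2 under that limit were Mgp and Islr, at -0.68 and -0.74. Foxd1, Crabp2, Slc22a6 and Slc6a13 lay below the median on every array. The 1 gene of this list tested on 430B stood at -0.61 and was not called (unadjusted limma p under 0.05). The part of these cells in the Dcn values was not tested.

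**Figure D1:**
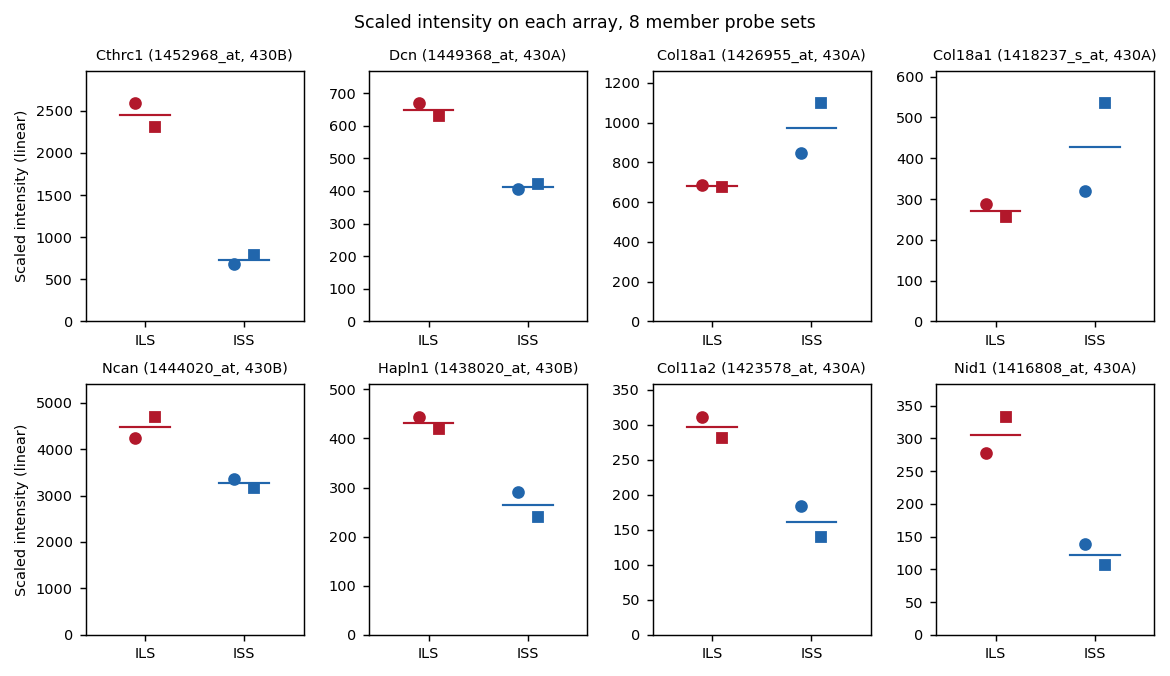
Scaled intensity (linear axis from 0) of 8 member probe sets, with ILS at left in red (circle, mouse 48, square, mouse 51) and ISS at right in blue (circle, mouse 55, square, mouse 56), and a line at each mean of 2 mice. The strains do not overlap in any of the 8, Cthrc1 has the widest gap, Col18a1 is the gene lower in ILS, and Nid1 was below the filter for testing.

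The small leucine-rich proteoglycans otherwise showed no called gene. Fibromodulin (Fmod), which binds collagen fibrils, had 390 and 386 in ILS against 305 and 292 in ISS at its brightest probe set. Both ILS arrays were above both ISS arrays there, with a log2 difference of 0.38 and an adjusted p of 0.205. Its other tested probe sets, of a design in which probes can bind further transcripts, gave 0.14 and -0.05 with overlapping strains. Biglycan (Bgn), closely related to decorin, had 485 and 527 in ILS against 391 and 431 in ISS, a log2 difference of 0.30 with an adjusted p of 0.278. Lum and Ogn had no tested probe set.

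None of the other tested members passed the test. The counts without overlap between strains, which include Dcn and Cthrc1, were read against those of each chip. On 430A both ILS arrays lay above both ISS arrays at 12 of the 30 tested member probe sets (40%) and below them at 3 (10%). Over all tested probe sets of the chip the shares were 25.6% and 28.7%. Without the filter on dim probe sets the members' shares were 34.3% above and 11.1% below, beside 34.8% and 19.4% over the chip, so that the share above was that of the background. On 430B the tested members stood above at 7 of 18 (38.9%) and below at 3 (16.7%), beside 19.6% and 19.3% of all tested probe sets. Without the filter they were at 30.2% and 16.3%, beside 20.3% and 16.2%.

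How far the members leaned depended on how the arrays were scaled. The 430A array medians were 239 and 227 in ILS and 213 and 205 in ISS, since the deposited scaling equalised trimmed means. The median log2 difference of tested members on 430A was 0.14, beside -0.01 for all tested probe sets, with 21 of 30 above 0. With array medians made equal the member median was -0.02 and that of all probe sets -0.17, and 13 of 30 members stood above 0. On that scale the non-overlapping members numbered 6 above (20%) and 8 below (26.7%), beside 12.5% and 47.7% of all tested probe sets, and 1158 probe sets of the chip were called, of which 19.3% were higher in ILS. With trimmed means 332 were called, of which 54.8% were higher in ILS. Under quantile normalization the member median was 0.06, beside -0.01 for all tested probe sets. The counts were 12 above (40%) and 3 below (10%), beside 24.9% and 28.1%. On 430B the member median was 0.03 and that of all tested probe sets -0.001. With equal medians these were -0.02 and -0.05.

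**Figure D2:**
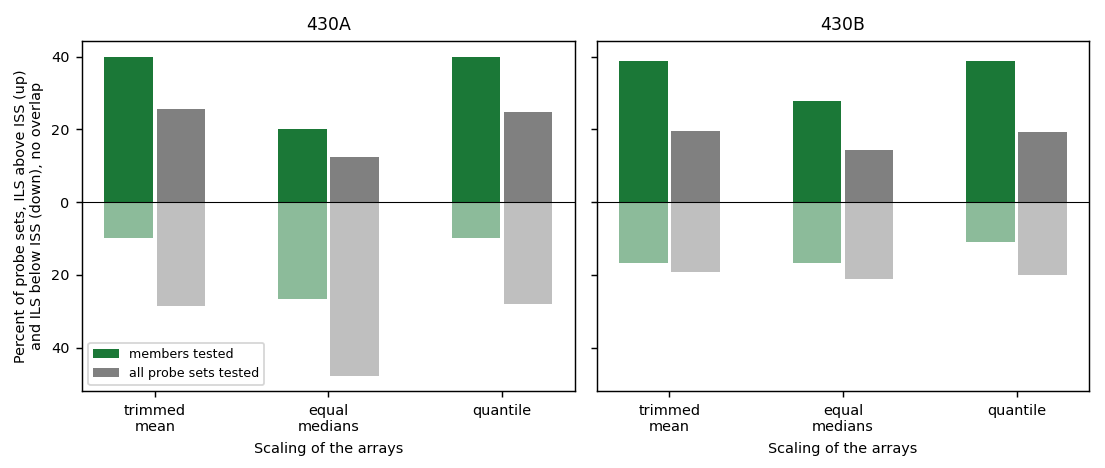
Percent of probe sets at which both ILS arrays lay above both ISS arrays (upward bars) or below them (downward, paler bars), for tested members (green) and all tested probe sets (grey), under 3 scalings of the arrays on each chip. On 430A the members stand at 40% up and 10% down with trimmed means and move towards fewer up and more down with equal medians, as all probe sets do.

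Fibrillar collagens, the rope-like collagens of connective tissue, gave no call among 6 tested probe sets of 5 genes. Col11a2, an alpha chain of type XI collagen, had 312 and 282 in ILS against 184 and 140 in ISS, where both ISS values were below their array medians. The ILS signal was therefore at least 1.42-fold higher, with an adjusted p of 0.0654, and it was called with equal medians (0.0412) and without ISS mouse 55 (0.0242). Col27a1, a chain of cartilage and other tissues, had 1027 and 1188 in ILS against 1199 and 1454 in ISS at one 430B probe set, and its other probe set overlapped. The log2 differences were -0.26 and -0.19. Col1a2 (-0.04), Col3a1 (0.08) and Col5a1 (0.05) had overlapping strains at their tested probe sets. Col1a1, Col2a1, Col5a2, Col5a3, Col11a1 and Col24a1 had no tested probe set.

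No network collagen was called. Col4a1, a core chain of type IV collagen, had 463 and 483 in ILS against 456 and 457 in ISS at one probe set, a log2 difference of 0.05 with a 95% interval of -0.27 to 0.37, and 0.04 at the other. Col4a2, the partner chain encoded next to it on chromosome 8, had 490 and 349 in ILS and 282 and 409 in ISS, which overlapped. Its log2 difference was 0.29 with a 95% interval of -0.25 to 0.82, and 0.02 to 0.56 with a mouse left out. Col8a1, of type VIII collagen in vessel walls, had 343 and 346 in ILS against 256 and 238 in ISS on 430B, without overlap, at 0.48 and an adjusted p of 0.689. Col4a3, Col4a4, Col4a5 and Col4a6 had no tested probe set.

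Laminins are the heterotrimeric glycoproteins that assemble the basement membrane sheet, and nearly all lay below the filter. Lamc1, the gamma chain shared by most laminins, was the tested one, with 369 and 399 in ILS against 322 and 247 in ISS. All its ILS values exceeded its ISS values, at a log2 difference of 0.44 ± 0.18 (SE) and an adjusted p of 0.208. Without ISS mouse 56 it was 0.25. Over all 16 laminin probe sets of 430A, tested or not, ILS stood above ISS without overlap at 9 (56.2%) and below at 3 (18.8%), beside 34.8% and 19.4% of all probe sets of the chip. With equal medians the counts were 7 and 3 (43.8% and 18.8%), beside 23.3% and 31.3%. Under quantile normalization they were 3 and 3 (18.8% each), beside 24.7% and 24.8%. The 9 include both probe sets of Lama4, whose signal rests on 1 mouse. Lamc3 had 171 and 173 in ILS against 105 and 104 in ISS, dim on every array, and Lamb1 stood lower in ILS at 2 of its 4 probe sets.

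Lama4, the alpha chain of vascular laminins, was high in a single mouse. One probe set had 735 and 30.8 in ILS mice 48 and 51 and 28.1 and 18.8 in ISS mice 55 and 56, so that mouse 48 stood 23.9-fold over the next array. The other had 321 and 46.3 in ILS and 41.7 and 25.2 in ISS, 6.94-fold over the next. The chip was searched for probe sets where 1 array was above its own median and at least 5-fold over every other array. For ILS mouse 48 these 2 were the ones found among the 22626 probe sets of 430A. Signals below the array's own median were not counted. The other 430A arrays had 1 (ILS mouse 51), 0 and 0 such probe sets, and the 430B arrays had 4 and 2 in ILS and 2 and 3 in ISS. The 5-fold rule was chosen after Lama4 was seen, and neither Lama4 probe set reached the filter for testing.

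**Figure D3:**
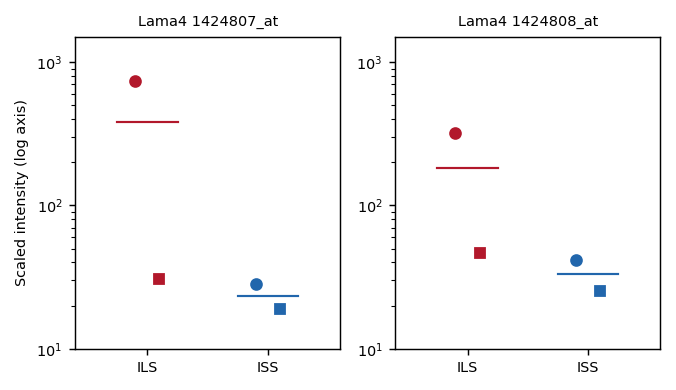
Scaled intensity (log axis) of the 2 Lama4 probe sets on 430A, ILS at left in red (circle, mouse 48, square, mouse 51) and ISS at right in blue (circle, mouse 55, square, mouse 56), lines at the means. ILS mouse 48 stands alone at 735 and 321.

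Nidogen links laminin to type IV collagen. Nid1 was not tested, and it is named here for its values. Its brightest probe set had 278 and 333 in ILS against 138 and 106 in ISS, both ISS values being below their array medians, so that ILS was at least 1.46-fold higher. A dimmer 430A probe set had 79.8 and 85.4 in ILS against 43.6 and 23.4 in ISS, again without overlap but dim in both strains. The 430B probe set overlapped. Nid2 had overlapping, dim values.

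Col18a1 was the gene whose tested probe sets were both lower in ILS without overlap. Type XVIII collagen is a basement membrane proteoglycan whose end fragment is endostatin. The brighter probe set had 685 and 675 in ILS against 845 and 1097 in ISS, and the dimmer had 287 and 256 in ILS against 320 and 534 in ISS. ISS mouse 56 was the highest array at each. The log2 differences were -0.50 ± 0.16 and -0.61 ± 0.24 (SE), with limma adjusted p-values of 0.122 and 0.196. Both passed with equal medians (0.0287 and 0.0456). Without ISS mouse 55 the log2 differences were -0.69 and -0.98, and without ISS mouse 56 they were -0.31 and -0.24. Most of the difference at the dimmer probe set thus rests on ISS mouse 56, and a smaller part of that at the brighter one. Col15a1, the other multiplexin, was dim, with 137 and 155 in ILS and 115 and 89.8 in ISS, and so stood the other way.

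Of 11 tested endothelial genes on 430A, which mark cells that make basement membranes, limma called none. At an unadjusted p under 0.05 there were 2, beside 21.8% of all tested probe sets. Over all 13 endothelial genes on the chip, tested or not, the summed intensities were 6905 and 7672 in ILS and 7056 and 7040 in ISS. Cdh5 lay below the median on every array. Of 4 tested genes of pericytes and smooth muscle limma called none (2 at an unadjusted p under 0.05). All 10 on the chip, tested or not, had sums of 6063 and 5429 in ILS and 4717 and 4230 in ISS. Abcc9, Anpep, Kcnj8, Myh11 and Tagln were below the median on every array. Their part in the values of Lamc1, Nid1 and Col18a1 was not tested.

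The sequences before the annotated starts of Nid1 and Col18a1, which stood on opposite sides of ISS, and of the lectican Ncan are shown as the letters next to the genes described. They come from RefSeq on GRCm38.p6, in which 52 of the 73 member genes had an entry. All are in gene orientation, 5' to 3', and end at the base before the start, or for Ncan before the gene's outer end. Capitals mark the GC box GGGCGG, searched on both strands and so also as CCGCCC, and TATAAA, searched on the gene strand. The Nid1 window is chr13:13437352-13437601 on the plus strand, with 1 GC box. The Col18a1 windows are chr10:77166531-77166780, before the outer start, with 3 GC boxes, and chr10:77113706-77113955, before a start inside the gene, with none. Both are on the minus strand. The Ncan window is chr8:70120864-70121094 on the minus strand, with 1 GC box, and holds 231 bases because the gene's outer end lies past its listed start.
Nid1: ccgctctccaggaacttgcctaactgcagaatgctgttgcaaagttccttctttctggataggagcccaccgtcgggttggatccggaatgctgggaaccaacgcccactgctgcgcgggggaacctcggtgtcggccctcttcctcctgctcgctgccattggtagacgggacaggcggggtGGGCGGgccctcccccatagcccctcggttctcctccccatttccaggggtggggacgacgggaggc
Col18a1 outer start: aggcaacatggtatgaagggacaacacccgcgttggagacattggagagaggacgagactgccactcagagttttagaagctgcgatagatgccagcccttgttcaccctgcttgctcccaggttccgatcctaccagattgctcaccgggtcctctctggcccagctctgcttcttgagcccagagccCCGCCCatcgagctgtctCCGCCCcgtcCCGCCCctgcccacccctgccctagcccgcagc
Col18a1 inner start: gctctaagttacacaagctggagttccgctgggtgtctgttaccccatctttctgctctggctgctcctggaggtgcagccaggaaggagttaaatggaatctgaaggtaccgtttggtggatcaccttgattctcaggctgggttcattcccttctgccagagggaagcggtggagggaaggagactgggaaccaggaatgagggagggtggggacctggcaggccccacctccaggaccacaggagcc
Ncan: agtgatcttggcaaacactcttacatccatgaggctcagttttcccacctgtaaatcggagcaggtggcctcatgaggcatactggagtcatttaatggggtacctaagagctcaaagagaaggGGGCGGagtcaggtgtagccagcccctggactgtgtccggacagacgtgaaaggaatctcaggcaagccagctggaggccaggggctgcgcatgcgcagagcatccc

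A GC box was in 32.7% of all 32851 such windows of 250 bases and in 31 of the 57 windows of member genes. TATAAA was in 7.6% of all windows and in 9 of the 57, and in none of those shown. A match describes the letters alone.

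Among the other collagens, type VI had higher values in ILS at 2 of 3 tested 430A genes, without a call. Col6a2, a chain of the beaded filaments that surround cells, had 446 and 363 in ILS against 319 and 307 in ISS at one probe set, and 351 and 348 in ILS against 282 and 274 in ISS at the other. Neither overlapped. The log2 differences were 0.36 and 0.33, with adjusted p-values of 0.254 and 0.267. Col6a3 had 218 and 306 in ILS against 209 and 181 in ISS, without overlap and not called. Both ISS values and the lower ILS value were below their array medians, so no bound on the fold is given. The Col6a3 log2 difference of 0.41 was 0.16 without ILS mouse 51. Col6a1, encoded next to Col6a2 on chromosome 10, had 256 and 189 in ILS and 235 and 238 in ISS, which overlapped.

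Collagens of the FACIT group, which decorate fibrils, and the transmembrane collagens gave no call. Col19a1 had 372 and 394 in ILS against 525 and 537 in ISS on 430B. Both ILS arrays lay below both ISS arrays, with a log2 difference of -0.47 and an adjusted p of 0.595. One 430A probe set, dim on every array, stood the other way at 64.3 and 73.4 in ILS against 36.8 and 34.4 in ISS. Col16a1 had 308 and 267 in ILS and 319 and 199 in ISS, and overlapped. Col25a1, a neuronal transmembrane collagen first found in amyloid plaques, had 749 and 767 in ILS against 693 and 357 in ISS on 430B, at 0.61 with an adjusted p of 0.602. Its 430A probe set, dim on every array, had 180 and 182 in ILS against 108 and 52.7 in ISS. ISS mouse 56 was the lowest array at both. On 430B the log2 difference was 0.13 without that mouse and 1.09 without ISS mouse 55.

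The brain matrix of lecticans had higher values in ILS for neurocan, without a call. Neurocan (Ncan), a hyaluronan-binding chondroitin sulfate proteoglycan of nervous tissue, had 4251 and 4702 in ILS against 3355 and 3174 in ISS on 430B. Both ILS arrays were above both ISS arrays, at 0.45 ± 0.14 (SE), with an unadjusted p of 0.00807 and a limma adjusted p of 0.276. At its tested probe set on 430A it had 490 and 586 in ILS against 479 and 338 in ISS, at 0.41 with an adjusted p of 0.267. Both tested probe sets thus had ILS above ISS without overlap on this scale, and without ISS mouse 56 the 430A value was 0.16. With equal array medians the 430A value was 0.25 and the strains overlapped there.

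Brevican (Bcan), the lectican of mature perineuronal nets, had 9100 and 9433 in ILS against 8851 and 8657 in ISS on 430B, at 0.08. Its 430A probe set overlapped at 0.14. Versican (Vcan) had 292 and 305 in ILS against 259 and 256 in ISS at its tested probe set, at 0.21 and not called. Aggrecan (Acan), the large lectican of cartilage and perineuronal nets, was not tested and overlapped, with 204 and 259 in ILS and 207 and 150 in ISS.

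Of the link proteins, Hapln1, which stabilises the bond of lecticans to hyaluronan, had 444 and 419 in ILS against 291 and 239 in ISS on 430B. The strains did not overlap, at 0.71 ± 0.27 (SE) with an adjusted p of 0.441. Its 3 probe sets on 430A were dim and overlapped. Hapln4, the link protein of cerebellar nets, had 5273 and 4961 in ILS and 5047 and 4962 in ISS, a log2 difference of 0.03 with a 95% interval of -0.26 to 0.32. Hapln4 and Ncan lie next to each other on chromosome 8, and Hapln1 and Vcan on chromosome 13. Hapln2, of nodes of Ranvier, stood at -0.19 and -0.03 and Hapln3 at 0.11, all overlapping.

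Tenascin-R (Tnr), a net component made by oligodendrocytes and some neurons, had 560 and 533 in ILS and 525 and 707 in ISS, which overlapped. Tnc, the tenascin of development and injury, was not tested, with 157 and 167 in ILS and 189 and 275 in ISS at its 430A probe set. Fibronectin (Fn1), an adhesive glycoprotein of plasma and matrix, had 1034 and 1457 in ILS and 980 and 1077 in ISS at 0.26, which overlapped. Its adjusted p was 0.428.

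Sparc and Sparcl1, collagen-binding glycoproteins of Bergmann glia and astrocytes, differed by small amounts. Sparcl1 had 7987 and 7785 in ILS against 7227 and 7068 in ISS, a log2 difference of 0.14, which was -0.02 with equal array medians. Sparc had 5460 and 5987 in ILS against 6346 and 6389 in ISS at one 430A probe set, at -0.16. The other 430A probe set overlapped at 0.01, and the 430B probe set had 607 and 602 in ILS against 583 and 565 in ISS, at 0.08. Sparc thus had a probe set without overlap in each direction. Of the 10 member genes with several tested probe sets, 8 had one sign throughout, and Sparc and Fmod had both.

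The other tested collagens were not called. Col23a1, a transmembrane collagen, had 616 and 322 in ILS and 504 and 553 in ISS at one 430B probe set, which overlapped. At its other tested probe set it had 260 and 190 in ILS against 272 and 287 in ISS, without overlap, at -0.33 with an adjusted p of 0.84. Col8a2, Col6a4, Col22a1 and Col9a3 overlapped at -0.15, -0.02, 0.02 and -0.03.

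Members without any tested probe set included the laminin chains Lama1, Lama2, Lama3, Lama4, Lama5, Lamb1, Lamb2, Lamb3 and Lamc3. They also included the FACIT collagens Col9a1, Col9a2, Col12a1, Col14a1 and Col20a1, and Col6a5, Col7a1, Col10a1, Col13a1, Col15a1, Col17a1 and Col26a1. Among the 103 untested probe sets, 8 had both ILS arrays above both ISS arrays with ISS alone dim, namely those of Col4a6, Col7a1, Col9a1, Lama2, Nid1 and Ogn and both of Lama4. In the other direction 4 had ILS alone dim and below ISS, those of Col5a1, Col6a4, Col12a1 and Tnc. At those of Col4a6, Col9a1, Lama2, Ogn and Lama4 an ILS array was also below its median, and at those of Col6a4 and Tnc an ISS array. No share over all probe sets was counted for this rule. Without the filter, ILS stood above at 34.8% and below at 19.4% of all 430A probe sets. On 430B the shares were 20.3% and 16.2%. Values are given for a few of the untested probe sets, chosen after they were seen. Col7a1, of anchoring fibrils, had 281 and 232 in ILS against 189 and 156 in ISS, at least 1.22-fold higher in ILS. Col5a1 had 183 and 164 in ILS against 223 and 305 in ISS at an untested probe set, at least 1.12-fold lower in ILS. Col12a1, of fibril surfaces, had 203 and 186 in ILS against 244 and 277 in ISS on 430B, at least 1.06-fold lower in ILS. A dimmer 430B probe set of Col12a1 stood the other way, with 16.5 and 14.9 in ILS against 12.5 and 9.5 in ISS. Its remaining probe sets overlapped.

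**Figure D4:**
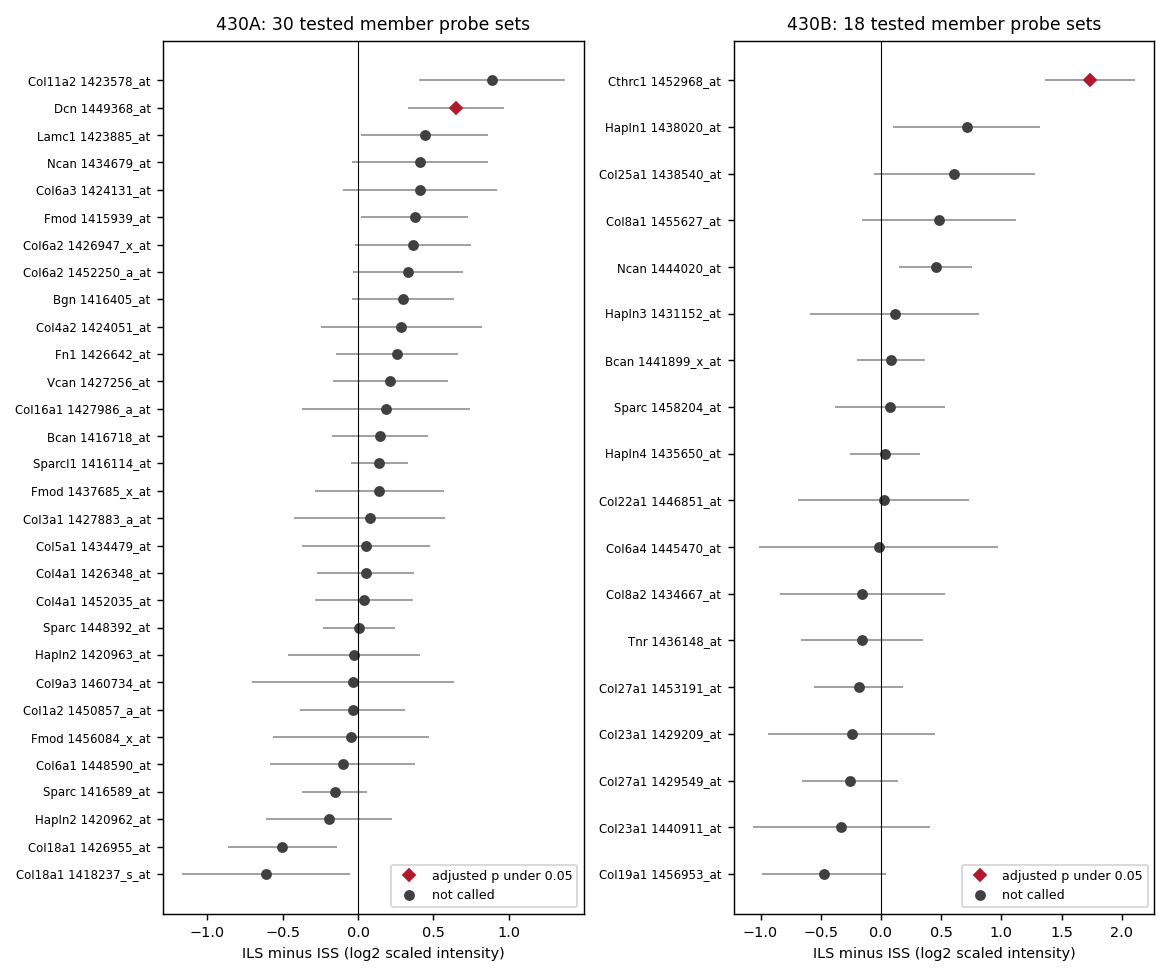
Log2 difference, ILS minus ISS, with its 95% interval from limma, for the 30 member probe sets tested on 430A and the 18 on 430B. Red diamonds mark Dcn and Cthrc1, which were called, grey circles mark the rest, and Col18a1 sits lowest on 430A.

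Genes that work with the matrix, in lists chosen by function, showed 2 called genes of 64 tested on 430A (3.12%, beside 2.93% over the chip) and none of 22 on 430B. At an unadjusted p under 0.05 by limma there were 17 on 430A (26.6%, beside 21.8% over the chip). On 430B there were 2 (9.1%, beside 9% over the chip). Of 11 tested matrix proteases and inhibitors 1 was called higher and none lower. It was Timp2, an inhibitor of matrix metalloproteases, with 3495 and 4221 in ILS against 2471 and 1916 in ISS at its brightest probe set. The strains did not overlap, at 0.82 ± 0.15 (SE) with a limma adjusted p of 0.0355. At its other tested probe sets, none of them called, the log2 differences were 0.61, 0.48, 0.48 and 0.03. The call was lost without ILS mouse 51 (adjusted p = 0.0704), without ISS mouse 56 (0.0925), with no filter (0.0729) and with no intensity trend (0.0675).

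Of 12 tested genes of TGF-beta signalling, the pathway that drives collagen expression in many cells, none was called higher and 1 lower. Smad4, the shared partner of receptor-regulated Smads, had 1007 and 813 in ILS against 1587 and 1725 in ISS at its brightest probe set. Both ILS arrays lay below both ISS arrays, at -0.87 ± 0.15 (SE) with a limma adjusted p of 0.0263. A further probe set was called at -0.80, and the remaining tested one stood at -0.49 (adjusted p = 0.0759). The call of the brightest was lost without ISS mouse 56 (0.0577) and with no filter (0.0512).

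None of 13 tested matrix receptors, 14 collagen processing enzymes and 14 other matrix proteins was called on 430A by limma. At an unadjusted p under 0.05 there were 5 receptors, 2 enzymes and 4 other matrix proteins, beside 21.8% of all tested probe sets. Bcam, a laminin receptor, had 413 and 318 in ILS against 209 and 187 in ISS, with an adjusted p of 0.0564. Perlecan (Hspg2), a basement membrane proteoglycan, had 1187 and 883 in ILS against 639 and 501 in ISS, with an adjusted p of 0.0536. Its other probe set was not tested. Bmp1, the protease that trims procollagens, stood at -0.40 (adjusted p = 0.149) at its brightest probe set and at -0.82 (adjusted p = 0.0922) at the other tested one, both without overlap. The list medians on 430A lay between -0.02 for receptors and 0.06 for TGF-beta signalling, beside -0.01 over all tested probe sets.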

How the data were processed

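Cerebellar total RNA of 4 mice was measured on 8 arrays. The authors deposited linear signal intensity values. Per the submitters' processing notes these came from MAS5, in a version not given in the sources used here. Deposited arrays already had a trimmed mean intensity of 500 (2% trimmed at each end). The run records, of unit other, were deposited by the authors and give chip, station and scan order per the file headers. The tables hold no detection calls.

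Arrays were rescaled to that trimmed mean, log2 transformed and stripped of 64 control probe sets a chip. Probe sets whose mean reached the chip median were tested with limma 3.58.1 in R 4.3.3 (lmFit, eBayes with trend; 2 residual and 6.22 or 7.31 prior degrees of freedom on 430A or 430B), two-sided, with Benjamini-Hochberg adjustment within a chip. A strain was dim where both values lay below their array medians. The fold is then given as a bound where both values of the brighter strain reached their medians. That bound is the brighter strain's mean log2 minus the dim strain's mean, with each value below its array median raised to it. Genes came from the platform annotation and RefSeq. Replicates are separate mice. The steps were tested on simulated data.

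The members and gene lists were chosen with earlier results of these data known. Described with values per array were called members, the 2 tested genes of smallest p in each role (1 where fewer than 4 were tested), genes with opposed probe sets, and of the lists the called genes and those of smallest p. Other members are named for their values after these were seen. Alternatives were equal medians, quantile normalization, a floor or pseudocount at the 20th percentile, no filter or one at the 75th, eBayes without trend or robust, leaving out each mouse, joint adjustment, station as a block on 430B and 1 probe set per gene. A fit with 1 array left in a strain takes that array's spread from the other strain.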

Additional observations from a re-analysis of the deposited data

How the results depend on the processing

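The Cthrc1 call was the one that held widely, and the member counts and medians moved with the settings. On 430A the calls over the chip (332) were 1158 with equal medians, 136 with no filter, 163 with the stricter filter, 208 with joint adjustment and 115 to 626 with a mouse left out. Member calls on 430A (1) were 3 with equal medians, 0 with quantile normalization, either other filter, no trend or joint adjustment, and 0 to 2 with a mouse left out. The member median on 430A (0.142) was -0.0161 with equal medians, 0.0648 with quantile normalization, 0.128 with the pseudocount, 0.238 with no filter, 0.0736 with the stricter filter, 0.187 with 1 probe set per gene and 0.0972 to 0.181 with a mouse left out. On 430B the calls over the chip (54) were 13 with no filter, 4 without trend, 24 with the station block, 94 with joint adjustment and 25 to 67 with a mouse left out, and member calls were 0 without trend. The member median on 430B (0.0273) was -0.0217 with equal medians, 0.0819 with no filter, 0.0751 with the stricter filter, 0.0894 with the station block, 0.0532 with 1 probe set per gene and 0.0171 to 0.0894 with a mouse left out. The filters also changed how many probe sets were tested. With the stricter filter 6 member probe sets were tested on 430A, and Dcn was not among them. The cause of these shifts was not tested.

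Signs turned for Sparcl1 (-0.016 with equal medians) and the Sparc probe set that overlapped (-0.152 with equal medians, -0.0991 to 0.11 with a mouse left out). With a mouse left out they also turned for the brighter Hapln2 probe set (-0.281 to 0.225), Col16a1 (-0.156 to 0.529), Tnr (-0.372 to 0.0574) and the brighter Col27a1 probe set (-0.378 to 0.00613), none of them called. No paired analysis was possible because the mice of the strains share no replicate number. The number of mice and the 103 untested, mostly dim probe sets limit what could be detected.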

Other observations

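Probe sets of one gene disagreed across the chips. Col26a1 had 39.4 and 46.8 in ILS against 163 and 120 in ISS on 430B, and 64.4 and 64.1 in ILS against 46.8 and 56.8 in ISS on 430A, dim on every array. Col4a4, dim on every array, had 154 and 168 in ILS against 80.8 and 79.4 in ISS at one 430B probe set. The other Col4a4 probe sets overlapped. The neighbouring gene Col4a3, also dim on every array, had 116 and 113 in ILS against 49.5 and 67.5 in ISS on 430A. On 430B Col4a3 had 130 and 202 in ILS and 149 and 174 in ISS, which overlapped. Microglial markers were called higher in ILS at 4 of 9 tested genes on 430A, beside 1.61% of all tested probe sets of the chip. The sums over all 11 microglial genes on the chip, tested or not, were 7267 and 7389 in ILS and 5588 and 4710 in ISS. The 1 microglial gene tested on 430B was not called. Of the other marker lists on 430A, oligodendrocytes had 1 of 8 tested genes called higher and Purkinje cells 1 of 8 called lower. Over that chip 2.93% of tested probe sets were called in either direction. On 430B Purkinje cells had 1 of 3 tested genes called higher. Granule cells had 1 of 4 called lower there, and Bergmann glia and astrocytes 1 of 4 called lower, beside 0.48% of probe sets called over the chip.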
